A study of Mus musculus with 6 samples.

Results

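The 10 long noncoding RNAs described here are Malat1, Neat1, Miat, Meg3, Rian, Mirg, Kcnq1ot1, Gas5, Snhg1 and Snhg12. They were taken by gene symbol from a table of 54884 entries, and each had 1 entry. The set was selected on the FPKM of Malat1, which was higher with the siRNA in these same libraries, so the Malat1 values are a description and carry no test. The other 9 were added as RNAs of the same classes, with results of these data already known. They fall into 7 RNAs known to stay in the nucleus and 3 hosts of small nucleolar RNAs (snoRNAs).

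The cells were cultured neural stem cells, the precursors of neurons and glia, from the hippocampus of C57BL/6J mouse embryos at embryonic day 14, used at passages 3 to 8. In the control group the cells were transduced with a lentivirus for a control siRNA named circCon. In the other group the lentivirus carried an siRNA against circHIPK2, a circular RNA of the Hipk2 gene. Both groups therefore carried a lentivirus and an siRNA, and there were 3 libraries in each. Per the labels' protocols the RNA was selected with oligo-dT beads. Separate cultures are not stated for the replicates, and each p-value then reflects only how far these libraries spread, which may be technical. In bulk libraries, fewer cells of a type and less RNA per cell cannot be told apart.

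Long noncoding RNAs are transcripts that are spliced and processed like messenger RNAs in many cases but encode no known protein. Malat1 is an abundant RNA of nuclear speckles, the stores of splicing factors, and Neat1, its neighbour in the genome, is the scaffold of paraspeckles. Meg3, Rian and Mirg come from the maternal copy of the imprinted Dlk1-Dio3 region, and Kcnq1ot1 comes from the paternal copy of the Kcnq1 region, where it silences nearby genes in cis. Gas5, Snhg1 and Snhg12 carry snoRNAs in their introns. Their spliced exons have short reading frames and are known to be degraded when they are translated, by nonsense-mediated decay. The full-length Malat1 transcript is cut at its end by RNase P and RNase Z. It has no poly(A) tail and ends in a genome-encoded stretch rich in A, followed before cutting by a tRNA-like RNA called mascRNA.

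That stretch is shown because an oligo-dT selection acts on runs of A. In the longest Malat1 transcript of GENCODE M21, 6983 nt long, a single run of 8 or more A was found, 12 nt long, at positions 6674 to 6685 counted from the 5′ end. Positions 6614 to 6745 of that transcript are printed with the run in capitals, and with the start of the tRNA-like part after it.
Malat1, end of the transcript: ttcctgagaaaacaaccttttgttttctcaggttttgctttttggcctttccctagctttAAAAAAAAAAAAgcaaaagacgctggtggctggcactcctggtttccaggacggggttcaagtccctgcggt
In the longest transcripts of Neat1, Miat, Mirg, Gas5 and Snhg1 there were 0 such runs, in Meg3 7, in Rian 2, in Snhg12 1 and in Kcnq1ot1 30. How these runs bear on the capture of each RNA was not tested.

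The start sites of the 6 RNAs with a mean above 1 FPKM (fragments per kilobase of transcript, scaled to the mapped fragments of the library) are shown because snoRNA hosts are known for a particular start. Each sequence runs from 50 bases before to 50 after a RefSeq start site on the gene's strand (GRCm38.p6), with the first 10 transcribed bases in capitals. The windows lie at chr19:5802623-5802722 (minus strand) for Malat1, chr5:112228899-112228998 (minus strand) for Miat, chr12:109540946-109541045 (plus) for Meg3, chr1:161035116-161035215 (plus) for Gas5, chr19:8723437-8723536 (plus) for Snhg1 and chr4:132308628-132308727 (plus) for Snhg12.
Malat1: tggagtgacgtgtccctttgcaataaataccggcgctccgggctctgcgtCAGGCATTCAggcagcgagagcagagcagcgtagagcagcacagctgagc
Miat: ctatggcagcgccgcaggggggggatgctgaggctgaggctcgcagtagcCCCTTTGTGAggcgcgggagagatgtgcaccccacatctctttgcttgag
Meg3: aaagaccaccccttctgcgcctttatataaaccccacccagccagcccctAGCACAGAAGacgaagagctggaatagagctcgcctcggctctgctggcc
Gas5: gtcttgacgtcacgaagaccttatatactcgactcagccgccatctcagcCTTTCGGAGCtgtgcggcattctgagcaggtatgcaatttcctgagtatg
Snhg1: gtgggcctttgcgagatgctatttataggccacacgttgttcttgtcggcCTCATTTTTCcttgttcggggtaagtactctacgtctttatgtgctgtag
Snhg12: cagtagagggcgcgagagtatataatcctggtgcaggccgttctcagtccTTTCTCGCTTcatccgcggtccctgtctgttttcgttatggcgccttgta
That start is the 5′ terminal oligopyrimidine, a C followed by a run of C or T. A C within 2 bases of the start followed by at least 4 of C or T was found on the gene's strand for Gas5, Snhg12 and Miat, and for 8.96% of 32851 promoter windows. The pattern was not found for Snhg1, Malat1 or Meg3. It was also absent for Rian, Mirg and Kcnq1ot1 and from the further windows of Gas5 and Meg3. It was thus lacking in a host and present in a nuclear RNA, and whether it is commoner in hosts was not tested. RefSeq windows were given for 9 of the 10 RNAs, and Gas5 and Meg3 had a further window each, not printed. In windows of 300 bases, searched on both strands, TATAAA lay in 1 window of Meg3 and in that of Snhg1 (13.6% of all windows), while CACGTG (7.15%) and TGANTCA (7.81%) lay in 0 of the 11 windows. A match is a string of letters and not a measured site.

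Single values are listed in the order of the library numbers, 1 to 3. Malat1 had 127, 116 and 133 FPKM under circCon and 231, 236 and 297 FPKM under the circHIPK2 siRNA. The groups did not overlap, and siRNA library 3 was the highest. The group means came to 125 ± 8.49 and 255 ± 37.0 FPKM (SD, n = 3 in each), a ratio of 2.04, with a log2 fold change of 1.01 (SE 0.13) on the log2(FPKM + 1) scale used for every log2 fold change here. Among all entries of the table Malat1 ranked 445, 458 and 395 by FPKM in the control libraries and 170, 170 and 109 in the siRNA libraries. A mean at least 2 times higher with the siRNA was found for 0.336% of the 13702 entries tested, those with a mean of at least 1 FPKM. Since this contrast chose Malat1, nothing is read from that share.

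Gm27694 is an entry of 86 nt inside Malat1, at positions 3588 to 3673 of the longest transcript. It had 74.2 ± 6.00 FPKM under circCon and 152 ± 19.6 FPKM under the circHIPK2 siRNA (SD, n = 3 each). It shares its reads with Malat1 and is a second reading of the same RNA, away from the end printed above. Its sequence is printed as the stretch that this second reading covers.
Gm27694: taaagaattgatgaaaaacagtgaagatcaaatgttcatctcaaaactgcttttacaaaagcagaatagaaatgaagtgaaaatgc

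**Figure D1:**
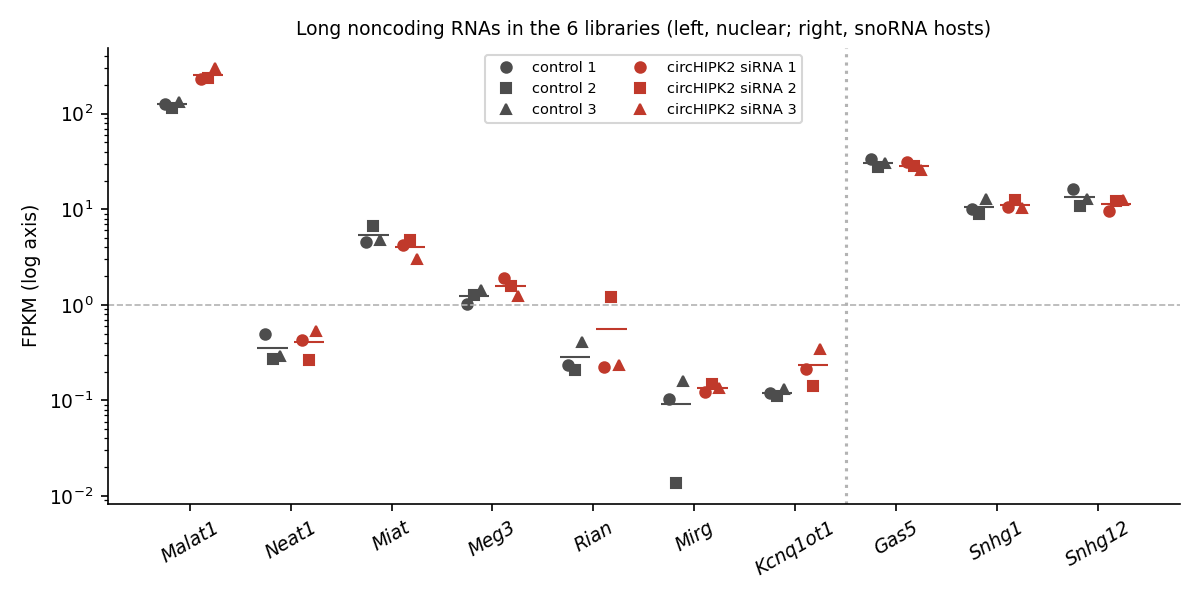
FPKM (log axis) of the 10 long noncoding RNAs in each library, with control libraries in grey, circHIPK2 siRNA libraries in red and group means as short lines; the dashed line marks 1 FPKM. Malat1 lies between 116 and 133 FPKM in the controls and between 231 and 297 FPKM with the siRNA, while the 3 snoRNA hosts at the right overlap between groups.

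Other values also differed between the groups, some upward and some downward. Ribosomal RNA locus entries and those rising with them, 9 in number, took 0.580%, 0.426% and 0.321% of total FPKM under circCon and 11.5%, 3.24% and 19.9% under the circHIPK2 siRNA. All 9 are called ribosomal RNA locus entries below, though Lars2 among them codes for a protein. These entries were picked for their rise in the same libraries. Among the siRNA libraries, library 3 was the highest in both the share of these entries and Malat1. Library 2 had the lowest share and about as much Malat1 as library 1. With these entries removed and the columns rescaled, the log2 fold change of Malat1 was 1.22 (SE 0.17). Rpph1, the RNA subunit of RNase P and itself an RNA without a poly(A) tail, was chosen after its values were seen. It had 5.61, 4.57 and 3.45 FPKM under circCon and 6.29, 8.43 and 15.7 FPKM under the circHIPK2 siRNA, without overlap, and did not pass the test (limma's adjusted p = 0.195). The part of ribosomal RNA or of RNAs without a tail in the Malat1 values was not tested. Hepatocyte markers, 12 of 12 with an entry, summed to between 52.5 and 76.3 FPKM in the controls and between 15.5 and 17.7 FPKM with the siRNA, and 3 of them were at 0 in all siRNA libraries. The highest of them, Trf, averaged 14.4 FPKM over the 6 libraries and overlapped between groups (log2 fold change −0.02, SE 0.10). Most of the siRNA sums was therefore Trf. Of the 10 tested, 9 were called lower by limma, where 0.139% of all entries tested were. The smallest p were those of Alb, serum albumin (log2 fold change −4.22, SE 0.13), and Serpina1b, a protease inhibitor (limma's adjusted p = 0.00126). Their part was not tested either.

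**Figure D2:**
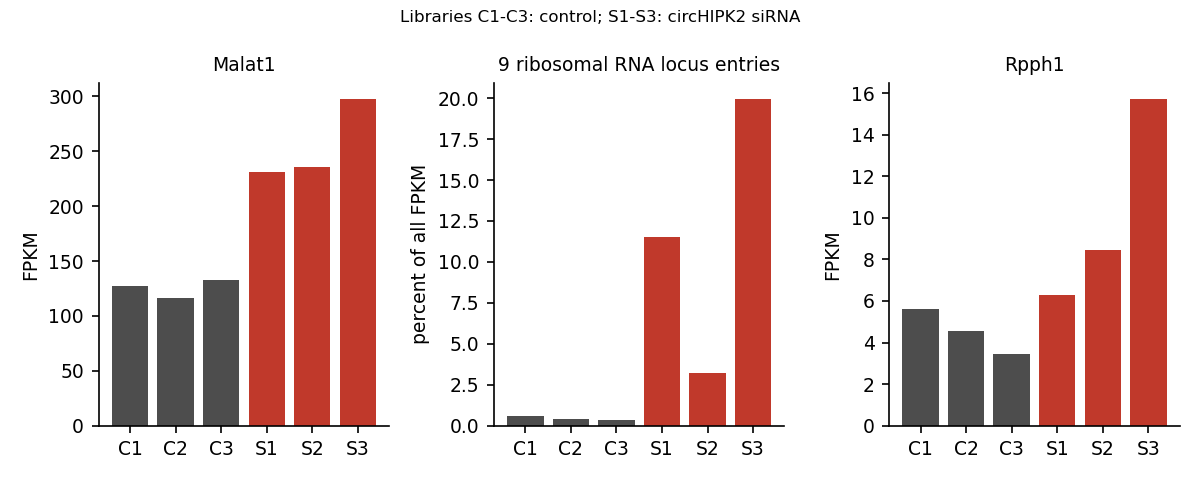
Malat1 (FPKM), the percent of total FPKM in the 9 ribosomal RNA locus entries, and Rpph1 (FPKM), as 1 bar per library with control in grey and circHIPK2 siRNA in red. All 3 are higher in every siRNA library than in any control library, and siRNA library 3 is the highest in each, at 297 FPKM, 19.9% and 15.7 FPKM.

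With 1 library left out at a time, the log2 fold change of Malat1 lay between 0.90, without siRNA library 3, and 1.08, without siRNA library 1. Malat1 was also compared with other RNAs within each library. It had 3.77, 4.16 and 4.32 times the FPKM of Gas5 under circCon, and 7.48, 8.34 and 11.6 times under the circHIPK2 siRNA. It had 1.57, 1.39 and 1.40 times the FPKM of Xist, the RNA that coats the inactive X chromosome, in the controls, and 2.79, 2.47 and 3.89 times with the siRNA. Neither ratio overlapped between the groups. Both ratios hold the Malat1 contrast and are no separate evidence for it.

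Of the 9 RNAs other than Malat1, 5 were tested and 0 passed (0 also at an unadjusted p under 0.05 by limma), where 0.255% of all entries tested passed in either direction. At that unadjusted p 1.83% of all entries tested were higher with the siRNA and 15.5% lower, and counts at it are given below beside those shares. Their libraries overlapped in every case but Kcnq1ot1. Neat1 was weakly expressed, at 0.499, 0.274 and 0.288 FPKM under circCon and 0.431, 0.264 and 0.529 FPKM under the circHIPK2 siRNA. The groups overlapped, with means of 0.354 ± 0.126 and 0.408 ± 0.134 FPKM (SD, n = 3 each), and Neat1 lay below the filter of the test (exact two-sided permutation p = 0.7). In the controls Malat1 had between 254 and 460 times the FPKM of Neat1. The 3 small entries inside Neat1 also overlapped between the groups, with log2 fold changes from 0.01 to 0.28. Neat1 is made as a short RNA with a tail and a long RNA without one, and the deposited values do not separate them.

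Miat, a nuclear RNA first linked to myocardial infarction and found in neural cells, had 4.54, 6.73 and 4.77 FPKM under circCon and 4.26, 4.80 and 3.03 FPKM under the circHIPK2 siRNA. The groups overlapped, with siRNA library 3 lowest and control library 2 highest. The group means came to 5.35 ± 1.20 and 4.03 ± 0.907 FPKM (SD, n = 3 in each), and its log2 fold change, −0.34 (SE 0.17; 95% interval −0.73 to 0.06), missed the threshold (limma's adjusted p = 0.346). The 3 small entries inside Miat with at least 1 FPKM had log2 fold changes from −0.40 to −0.29, and they share reads with it.

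Neuronal markers stand beside Miat and Meg3, which neurons are known to express. All 14 had an entry, and they summed to between 154 and 170 FPKM in the controls and between 125 and 142 FPKM with the siRNA. Of the 9 tested, 0 passed by limma (4 were lower at an unadjusted p under 0.05, as were 15.5% of all entries), and 4 lay entirely lower with the siRNA, where 22.1% of all entries tested did. The part of neuronal cells in these values was not tested. The neural stem cell markers, 13 of 13 with an entry, summed to between 2257 and 2777 FPKM and between 2009 and 2496 FPKM, led by Fabp7, a fatty acid binding protein of radial glia. Astrocyte markers, 6 of 6 with an entry, summed to between 179 and 319 FPKM in the controls and between 164 and 396 FPKM with the siRNA, and the 7 oligodendrocyte markers to between 110 and 149 FPKM and between 76.1 and 133 FPKM, both with overlap. Markers of microglia, fibroblasts, endothelium and the erythroid line summed to less than 1 FPKM in every library.

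Of the imprinted Dlk1-Dio3 RNAs, Meg3 was the only one with a mean above 1 FPKM. It had 1.03, 1.25 and 1.44 FPKM under circCon and 1.91, 1.59 and 1.23 FPKM under the circHIPK2 siRNA. The groups overlapped, since siRNA library 3 lay under control libraries 2 and 3. The group means came to 1.24 ± 0.202 and 1.58 ± 0.338 FPKM (SD, n = 3 in each), and its log2 fold change, 0.20 (SE 0.14; 95% interval −0.12 to 0.51), missed the threshold (limma's adjusted p = 0.462).

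Rian, which hosts clustered snoRNAs of the same transcription unit, had 0.237, 0.206 and 0.405 FPKM under circCon and 0.224, 1.20 and 0.234 FPKM under the circHIPK2 siRNA. Only siRNA library 2 stood above the controls, and without it the log2 fold change went from 0.22 to −0.06. The Rian row is 1 of the closing 697 rows of the table, a block set to start at the first row with a value of more than 6 decimals. In that block 390 rows hold such a value. That 0 of the 54187 rows before it do follows from how the block was set. Such decimals arise when several values are averaged, so the Rian value may be a mean over more than 1 entry. What was averaged is not stated.

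Mirg, the host of a large microRNA cluster, had 0.103, 0.0137 and 0.162 FPKM under circCon and 0.122, 0.149 and 0.136 FPKM under the circHIPK2 siRNA. The groups overlapped, and control library 2 was the lowest. At the depths read from the table, between 18460000 and 21910000 fragments, 1 fragment of the longest Mirg transcript is worth between 0.0119 and 0.0142 FPKM, so that library rests on about 1 fragment. Of 7 other genes of the region with an entry only Ppp2r5c, a phosphatase subunit at its edge, was tested, and it did not pass (log2 fold change −0.12, limma's adjusted p = 0.622). Dlk1, a Notch-related membrane protein, had 0.359 ± 0.218 and 0.492 ± 0.145 FPKM (SD, n = 3 each), and Dio3, a deiodinase of thyroid hormone, was listed at 0 in all 6 libraries.

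Kcnq1ot1 was the other nuclear RNA whose libraries did not overlap. It had 0.120, 0.111 and 0.131 FPKM under circCon and 0.213, 0.141 and 0.344 FPKM under the circHIPK2 siRNA. SiRNA library 2 lay just above the controls and siRNA library 3 was the highest. The means of 0.121 ± 0.0102 and 0.233 ± 0.103 FPKM (SD, n = 3 each) were 1.93-fold apart (p = 0.1 by an exact two-sided permutation test, the lowest possible with 3 against 3). Of the 17958 entries above 0 with a mean under 1 FPKM, 6.30% lay entirely higher with the siRNA.

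Its low FPKM comes with a long annotated transcript of 93092 nt. If the FPKM used that length, and at the depths read from the table, the values correspond to about 221, 226 and 262 fragments in the controls. With the siRNA they correspond to 366, 277 and 645, so single fragments would not limit them. Among the siRNA libraries its order, library 3, then 1, then 2, was also that of the share of the ribosomal RNA locus entries. How the 2 are related was not tested. The filter left Kcnq1ot1 out of the test. With no filter it did not pass (limma's adjusted p = 0.463), and with a pseudocount of 0.01 as well the log2 fold change was 0.81 (limma's adjusted p = 0.539).

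Of 11 protein-coding genes of the Kcnq1 region 5 were tested and 0 passed by limma (2 were lower at an unadjusted p under 0.05, as were 15.5% of all entries), and 3 lay entirely lower with the siRNA (22.1% of all entries tested did). Kcnq1 itself, a potassium channel gene that Kcnq1ot1 overlaps on the other strand, had at most 0.00317 FPKM in any library. Cd81, a tetraspanin and the most abundant of these genes, had 457, 212 and 119 FPKM under circCon and 84.6, 115 and 82.5 FPKM under the circHIPK2 siRNA. The groups did not overlap, but the control libraries ranged widely, and its log2 fold change, −1.27 (SE 0.41), missed the threshold (limma's adjusted p = 0.207). Cdkn1c, a cell cycle inhibitor known to be silenced in cis by Kcnq1ot1, was chosen after its values were seen. It had 4.40, 4.77 and 4.81 FPKM under circCon and 3.23, 3.32 and 2.46 FPKM under the circHIPK2 siRNA, and its log2 fold change, −0.51 (SE 0.12), missed the threshold (limma's adjusted p = 0.144).

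For each of the 3 snoRNA hosts the libraries of the groups overlapped and no difference passed the test. Gas5, known for its accumulation in growth arrest, had 33.7, 27.9 and 30.7 FPKM under circCon and 30.9, 28.2 and 25.6 FPKM under the circHIPK2 siRNA. The group means came to 30.8 ± 2.89 and 28.2 ± 2.67 FPKM (SD, n = 3 in each), with a log2 fold change of −0.12 (SE 0.11; 95% interval −0.37 to 0.13; limma's adjusted p = 0.576). The median of all genes tested was also −0.12, so Gas5 lay at the median. Its sign turned to positive, by at most 0.08, with median-of-ratios scaling, quantile normalization or removal of the ribosomal RNA entries.

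Snhg1, which hosts box C/D snoRNAs, had 10.1, 8.99 and 12.7 FPKM under circCon and 10.5, 12.5 and 10.3 FPKM under the circHIPK2 siRNA. The log2 fold change was 0.07 (SE 0.14; 95% interval −0.25 to 0.38; limma's adjusted p = 0.816). Its direction turned without control library 2 (−0.04) and without siRNA library 2 (−0.02). Snhg12, a host of several snoRNAs, had 16.3, 10.9 and 12.9 FPKM under circCon and 9.59, 12.3 and 12.4 FPKM under the circHIPK2 siRNA. Control library 1 was the highest and siRNA library 1 the lowest, and the log2 fold change was −0.20 (SE 0.16; 95% interval −0.55 to 0.16; limma's adjusted p = 0.511). A change of 2-fold lies outside each of these 3 intervals, which are those of limma at 95%.

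**Figure D3:**
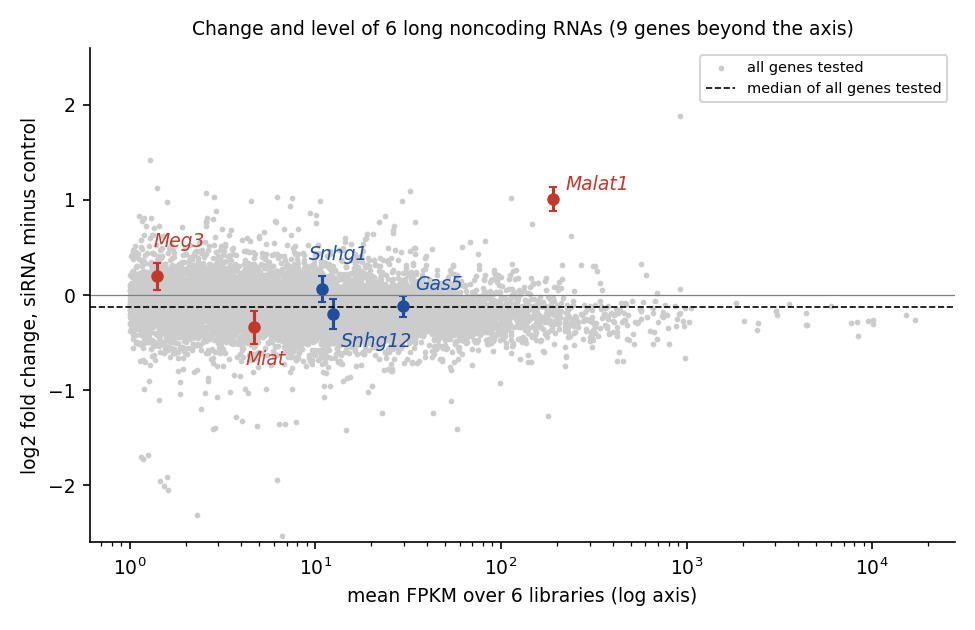
Log2 fold change (siRNA minus control, log2(FPKM + 1) scale) against mean FPKM (log axis) for all 13702 entries tested, in grey, with the 6 long noncoding RNAs tested in colour (nuclear red, snoRNA hosts blue) and bars of 1 SE; 9 entries lie beyond the axis. Malat1 lies at 1.01, and the 3 snoRNA hosts lie between −0.20 and 0.07, around the dashed median of −0.12.

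Small entries for the snoRNAs themselves lie within the hosts. Such short entries have FPKM that rest on few bases, and their reads may come from unspliced or exonic host RNA. Inside Gas5 9 entries on the same strand had at least 1 FPKM, of which 8 overlapped between groups and 1, Snord80, was entirely lower with the siRNA, at 9.10 ± 2.65 and 6.40 ± 1.00 FPKM (SD, n = 3 each), where 22.1% of all entries tested lay entirely lower. The symbol Snord80 stands for 2 GENCODE entries. The log2 fold changes of the 9 ran from −0.43 to 0.53, highest for Mir5117, at 4.08 ± 1.11 and 6.76 ± 3.26 FPKM with overlap. Inside Snhg1 8 such entries and inside Snhg12 2 were found, all overlapping between groups, with log2 fold changes from −0.16 to 0.39 and from −0.33 to −0.31.

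Of 15 other noncoding snoRNA hosts with an entry 12 were tested and 0 passed by limma (1 was lower at an unadjusted p under 0.05, as were 15.5% of all entries). Their median log2 fold change was −0.11, and that of the 3 described above −0.12, beside −0.12 over all genes. Snhg8, the most abundant, had 17.8, 17.7 and 13.6 FPKM under circCon and 12.1, 12.8 and 6.99 FPKM under the circHIPK2 siRNA, without overlap, and did not pass (log2 fold change −0.61, SE 0.21; limma's adjusted p = 0.221). Snhg8 and Snhg20 were the 2 of the 12 that lay entirely lower, where 22.1% of all entries tested did, and 0 lay entirely higher, where 2.65% did.

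The nuclear RNAs differed in sign. Of the 3 nuclear RNAs that were tested, Malat1 and Meg3 had positive log2 fold changes and Miat a negative one, and 4 others were below the filter. No median over these 3 is given as support, since Malat1 was chosen for its rise. In the fits that used other scalings, filters or libraries, the log2 fold change minus the median of all genes lay between 0.98 and 1.23 for Malat1, from 0.21 to 0.45 for Meg3 and from −0.32 to −0.04 for Miat. It lay between −0.10 and 0.06 for Gas5, from 0.08 to 0.30 for Snhg1 and from −0.25 to 0.06 for Snhg12.

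**Figure D4:**
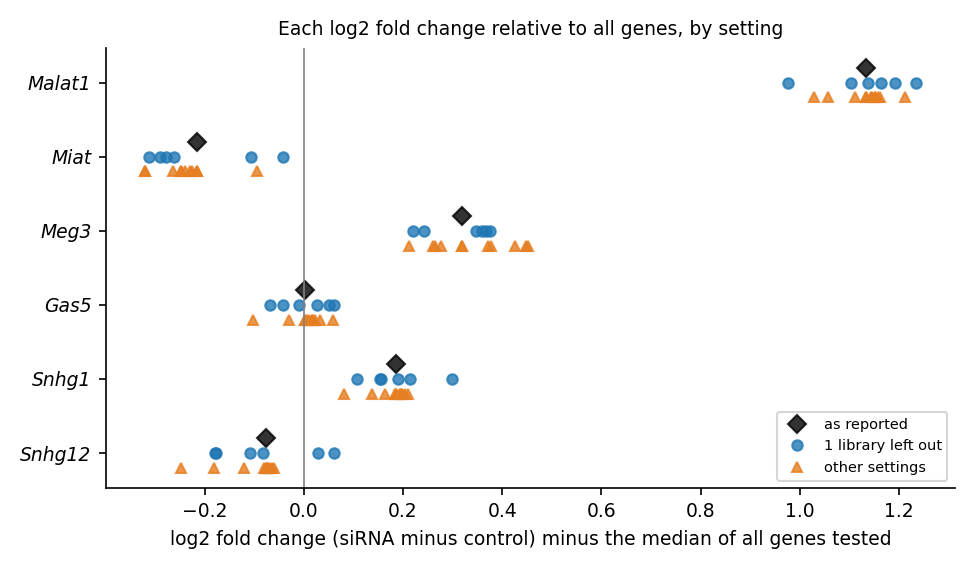
Log2 fold change minus the median of all genes tested, for 6 long noncoding RNAs as reported (diamonds), with 1 library left out (circles) and under the other settings (triangles). Malat1 stays between 0.98 and 1.23, Miat is below 0 and Meg3 and Snhg1 above 0 throughout, and Gas5 and Snhg12 lie on both sides of 0.

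Genes with a known part in the making, binding or decay of these RNAs were described from lists by function, each with its count at an unadjusted p under 0.05 by limma. Over all entries tested 15.5% were lower and 1.83% higher at that p. Of 25 paraspeckle protein genes tested 0 passed by limma and 6 were lower at the unadjusted p, with a median log2 fold change of −0.18, and the most abundant, Hnrnpk, an RNA-binding protein of paraspeckles, had 174 ± 10.0 and 140 ± 9.35 FPKM (SD, n = 3 each; limma's adjusted p = 0.215). Of 28 nuclear speckle genes 0 passed and 7 were lower at the unadjusted p, with a median of −0.18, and Sf3b2, a splicing factor subunit, had 95.7 ± 7.00 and 89.1 ± 8.91 FPKM. Of 12 genes for the processing of the Malat1 end and its stability 0 passed and 2 were lower at it, with a median of −0.14, and Elac2, the RNase Z enzyme, had a log2 fold change of −0.13 (SE 0.11). The medians stand beside −0.12 for all genes.

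Decay factors and snoRNP proteins are given in the same way, beside 15.5% lower over all entries. Of 20 genes of nuclear RNA decay 0 passed by limma and 2 were lower at the unadjusted p, with a median of −0.11, and Pabpn1, the nuclear poly(A)-binding protein, had 58.3 ± 12.4 and 58.0 ± 17.8 FPKM. Of 18 factors of nonsense-mediated decay 0 passed and 4 were lower at it, with a median of −0.08, and Pnrc2, a decapping cofactor, had 74.0 ± 2.87 and 66.1 ± 3.36 FPKM. Of 17 snoRNP genes 0 passed and 6 were lower at it, with a median of −0.18, and Nhp2, a core protein of box H/ACA particles, had 67.7 ± 5.81 and 59.8 ± 3.46 FPKM (SD, n = 3 each).

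The genes whose log2 values followed Malat1 most closely over the 6 libraries were Faf2, Phlda3, Slc5a3, Klf4 and Gadd45b, with Pearson's r from 0.982 to 0.994 among 11416 entries searched. These points share the libraries and the contrast, so the r describes the group difference. Slc5a3, an inositol transporter, had 11.2 ± 0.234 and 17.7 ± 1.42 FPKM, and Faf2, an adaptor of protein degradation at the endoplasmic reticulum, had 14.8 ± 0.192 and 16.1 ± 0.314 FPKM (SD, n = 3 each). When only the deviations from the group means were used, the closest were Naa15, Dock10, Ccl25, Mrps11 and Lrrc8c, with r from 0.979 to 0.992, and 0 genes were in both sets. With 2 group means removed from 6 libraries and 11416 entries searched, values of r this high can arise by chance, so these names only describe the table.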

How the data were processed

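Poly(A)-selected RNA was sequenced in 3 control and 3 circHIPK2 siRNA libraries. The deposited table holds FPKM values made by the authors. HISAT, StringTie and edgeR with the mm9 build are named in the submitters' processing notes, while their versions, the annotation and whether counting used strand are not stated in any source used. Depth was read from the steps of low FPKM values of genes with 1 transcript of at least 500 nt, searched between 10000000 and 30000000 fragments. The depth with the most such values within 0.05 of a whole number of steps was taken, at between 33.5% and 36.8% of them. By chance 10% would fall there at a single depth set beforehand, so that value is no measure for the highest share of a search. With FPKM only, precision comes from the spread between libraries.

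Entries averaging 1 FPKM or more, 13702 in number, were compared as log2(FPKM + 1) with limma 3.58.1 in R 4.3.3 (trend, two-sided, Benjamini-Hochberg over all entries, call at adjusted p below 0.05). The steps were also run on simulated data with independent noise for each entry and no shift of whole libraries. That run cannot show how the calls behave under such shifts. In the 6 real libraries 16 entries were called higher (0.117%) and 19 lower (0.139%). Members and lists were chosen with earlier results of these data known. Named genes were the 10 members, up to 2 called members per direction of each list or otherwise its most abundant one, and the 5 entries most like Malat1 by each of 2 correlations. Entries inside a member were also named. Rpph1, Cdkn1c, Dlk1, Dio3, Kcnq1, Snhg20, Pvt1, Norad, Rmrp, Rn7sk, Rn7s1, Rn7s2 and the called long noncoding entries fall outside that rule and were chosen after their values were seen. Gm, Rik, clone-named and ribosomal RNA locus entries were left out of that search. Of 281 list symbols 271 matched by symbol and 3 by RefSeq synonym. Gene structures and transcripts are from GENCODE M21 and promoters from RefSeq, both of the later GRCm38 build, so they were joined by symbol only. Alternatives were other pseudocounts, filters and scalings, library weights, a replicate block and each library left out.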

Additional observations from a re-analysis of the deposited data

How the results depend on the processing

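The FPKM table gives no counts, so low values such as those of Mirg and Neat1 are limited by depth in a way that can only be estimated. The log2 fold change of Malat1 lay between 0.90 and 1.22 in 18 alternatives. They refit the same libraries, in which Malat1 was chosen for its rise and did not overlap. Its kept sign is therefore no support for the rise. Gas5 turned from −0.12 to 0.0159 with median-of-ratios scaling, 0.0329 with quantile normalization and 0.0819 without the ribosomal RNA locus entries, while the median of all genes moved from −0.12 to between −0.00095 and 0.058. Snhg1 ran from −0.0361 to 0.191 with 1 library left out. None of Meg3, Miat, Gas5, Snhg1 and Snhg12 passed in any fit that held it, with a lowest adjusted p of 0.143 (Snhg12, limma, with library weights). Of all genes tested, the 16 higher became 7 with no filter, 4 with quantile normalization, 55 with library weights and 30 with no filter and a pseudocount of 0.01, which was added after seeing the data. The 19 lower became 8 at a minimum mean of 5 FPKM, 12, 265 and 54 under quantile normalization, weights and that added setting. With 1 library left out, between 2 and 15 were higher and between 6 and 23 lower, the fewest without siRNA library 3. The cause was not tested. With the replicate number as a block 23 were higher and 23 lower, and no call of the members named above changed. Same-numbered libraries had correlated deviations of 0.05, 0.02 and 0.13, so the numbers were not taken to pair them.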

Other observations

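Of 659 tested entries that GENCODE M21 annotates as long noncoding, 40 (6.07%) lay entirely higher and 80 (12.1%) entirely lower with the siRNA, against 2.48% and 22.6% of the other 13043 entries. Their median log2 fold change was −0.06 against −0.12, and their median level was 2.48 FPKM against 9.12 FPKM. The difference was not tested, and 4 were called higher and 1 lower, as were 0.117% and 0.139% of all entries tested. The 4 were AY036118, Gm26917 and Gm15564, all counted among the ribosomal RNA locus entries, and Malat1, and the one that fell was Gm29521. All 4 were picked for their rise in these libraries, so their calls are no test of them. The Malat1 call was lost with no filter, with quantile normalization and in most fits with 1 library left out. By level Malat1 was the 7th of the 659.

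Among 34 other named long noncoding RNAs with an entry 20 were tested and 0 passed by limma (3 were higher and 1 lower at an unadjusted p under 0.05, as were 1.83% and 15.5% of all entries tested). Their median log2 fold change was 0.12, beside −0.12 over all genes. The 20 tested include Rpph1, described above, and Rmrp and Rn7sk, described below, and Rpph1 is 1 of the 3 higher. Xist, the most abundant, had 86.3 ± 7.33 and 84.9 ± 9.50 FPKM (SD, n = 3 each). The following were chosen after their values were seen. Pvt1, the neighbour of Myc, had a log2 fold change of 0.45 (SE 0.13) without overlap (limma's adjusted p = 0.185). Norad, a cytoplasmic RNA that binds Pumilio proteins, had 37.9 ± 5.87 and 28.8 ± 2.90 FPKM, also without overlap (limma's adjusted p = 0.229).

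RNAs known to lack a poly(A) tail were chosen after values were seen, and their relation to the Malat1 values was not tested. Of 70 clustered histone entries only 10 had at least 1 FPKM in these oligo-dT selected libraries. Whether the RNAs of these 10 lacked a tail here was not measured, so their sum does not stand for RNAs without a tail. They summed to 56.1, 67.4 and 54.4 FPKM under circCon and 58.1, 60.1 and 55.0 FPKM under the circHIPK2 siRNA. Ratios of single genes ran from 0.620 to 1.96, with a median of 1.02. Rn7sk, the 7SK RNA of transcription control, had 16.3 ± 5.18 and 18.9 ± 6.04 FPKM, and Rn7s1, a copy of the signal recognition particle RNA, had 14.9 ± 5.79 and 22.3 ± 7.39 FPKM (SD, n = 3 each). Rn7s2, a further copy, had 14.8 ± 5.68 and 23.0 ± 6.95 FPKM, and Rmrp, the RNA of RNase MRP, had 1.32 ± 0.349 and 1.73 ± 1.17 FPKM. These 4 and Rpph1 all had ratios of means above 1, from 1.16 to 2.23, but for the 4 the groups overlapped. Rn7s1 and Rn7s2 had nearly the same values, such as 8.493 and 8.492 FPKM in control library 3. They may share reads and are not separate readings. The share of all entries with a ratio above 1 was not counted. For Rmrp and Rn7sk siRNA libraries 1 and 2 lay below the control mean, so their ratios rest on siRNA library 3. That library was the highest for these 4, Rpph1 and Malat1, but not for the histone sum.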
